A study of Mus musculus with 8 samples.

Results

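Solute carriers (Slc genes) are a large group of membrane transporters, and they move amino acids, sugars, ions, vitamins, nucleotides and metals across the plasma membrane and the membranes of organelles. Macrophages depend on them to digest what they engulf: carriers of the lysosome and phagosome release amino acids, heme, nucleosides and metals into the cytosol. Some carriers work alone, and others, such as the Slc7 light chains, reach the membrane only with a partner subunit. The members described here are the mouse genes whose symbol begins with Slc and a digit and whose raw counts, summed over all 8 libraries, reach 1000. Slc2a1, Slc11a1, Slc11a2, Slc40a1, Slc44a4, Slc22a2, Slc22a3 and Slc22a18 were left out by name. The rule gave 156 genes of the 26667 in the table, which holds 359 Slc symbols. The members were thus chosen by their counts summed over both genotypes, a value that does not use the difference between them. Just inside the limit were Slc25a43 with 1058 counts, Slc46a1 with 1083 and Slc6a12 with 1090. Just outside were Slc6a9 with 976, Slc29a2 with 929 and Slc37a1 with 893. Below the limit were 195 Slc genes, of which 9 had no count at all.

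The samples were bone marrow derived macrophages (BMDMs) of C57BL/6 mice, grown from whole marrow in medium with 10% fetal calf serum and 30 ng/ml M-CSF, the growth factor that drives marrow cells to become macrophages, and taken at day 8 to 10. Poly(A) RNA was sequenced from 4 WT and 4 Dnmt3a KO cultures, called replicates 1 to 4 in each genotype. Dnmt3a encodes a DNA methyltransferase that sets new methylation marks. The labels do not say how or in which cells Dnmt3a was deleted, or whether each library came from its own mouse, so each p-value reflects no more than library-to-library spread, which may be technical.

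Libraries held 12614006 to 28502631 counts, of which the 156 carriers took 1.38% to 1.49%. Levels are given as CPM, counts scaled to a common library size with the trimmed mean of M values (TMM), and levels of different genes are set side by side only as CPM per kb of the longest annotated transcript. Dnmt3a itself was at 161 ± 10.0 CPM (mean ± SD, n = 4) in WT and 34.4 ± 3.70 CPM (n = 4) in KO. Summed macrophage markers ran from 11764 to 13062 CPM in WT and from 12454 to 16652 CPM in KO. WT replicate 1 stood apart from the other libraries: it was the highest or the lowest of the 8 for 71.8% of the carriers and for 67.5% of all tested genes. Values without it are given below for the counts of calls, the spread and some carriers, but not for every carrier.

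Of the 156 carriers, all entered the test, and 3 were called higher in Dnmt3a KO and 0 lower. The call is an adjusted p under 0.05 in edgeR's quasi-likelihood test, adjusted by the Benjamini-Hochberg method over all 12507 genes tested. Over all those genes, 1.22% were called higher and 0.392% lower, 1.61% in either direction. The carriers called were Slc7a7, a cationic amino acid transporter, Slc6a8, the creatine transporter, and Slc12a7, a potassium-chloride cotransporter. With an unadjusted p under 0.05, 8 carriers were on the higher side and 10 on the lower side, against 6.82% and 5.84% of all genes, or 12.7% in either direction. DESeq2 called 3 higher and 1 lower, beside 2.55% and 1.24% of the genes it tested. Without WT replicate 1 the counts were also 3 higher and 1 lower, and the share of all genes called was then 2.69% higher and 1.13% lower. The gene called lower in both of those settings was Slc39a14, described with the metal carriers.

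Slc7a7 encodes y+LAT1, a light chain that joins the heavy chain Slc3a2 and exports arginine and lysine in exchange for neutral amino acids and sodium. In humans its loss causes lysinuric protein intolerance, in which lung macrophages are among the affected cells. In WT it was at 10.8, 18.5, 16.1 and 19.2 CPM in replicates 1 to 4, and in KO at 34.96, 34.4, 35.4 and 38.03 CPM. Every KO library was above every WT library, and the KO libraries lay close together. The level was 2.20-fold higher in KO (log2 fold change 1.14, SE 0.17, 95% interval 0.77 to 1.51; edgeR adjusted p = 0.00579). In bulk RNA a change in the share of cells that express a gene and a change in the RNA of each cell cannot be told apart, here and below.

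Slc6a8 takes up creatine, which cells use with creatine kinase to buffer ATP. It was at 135, 149.9, 147 and 143 CPM in the WT libraries and at 202, 197, 205 and 216 CPM in the KO libraries. The groups did not overlap; the highest WT and the lowest KO library were further apart than the libraries of either genotype. KO was 1.42-fold higher (log2 fold change 0.51, SE 0.09, 95% interval 0.32 to 0.70; edgeR adjusted p = 0.0119). Without KO replicate 4 the call was lost, with a log2 fold change of 0.48 and an edgeR adjusted p of 0.0554; over all 16 other ways of fitting or leaving out a library its adjusted p ran from 5.96e-07 (DESeq2) to 0.0554.

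Slc12a7 encodes KCC4, which carries potassium and chloride out of the cell together and takes part in the control of cell volume. It was at 63.9, 62.03, 61.97 and 65.3 CPM in WT and at 86.7, 101, 94.4 and 92.5 CPM in KO. The WT libraries were nearly level, and all of them were below the lowest KO library. KO was 1.48-fold higher (log2 fold change 0.57, SE 0.09, 95% interval 0.37 to 0.76; edgeR adjusted p = 0.00820). Slc7a7 and Slc12a7 kept their call in each of those 16 settings, with a highest adjusted p of 0.0262 for Slc7a7 and 0.0452 for Slc12a7.

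**Figure D1:**
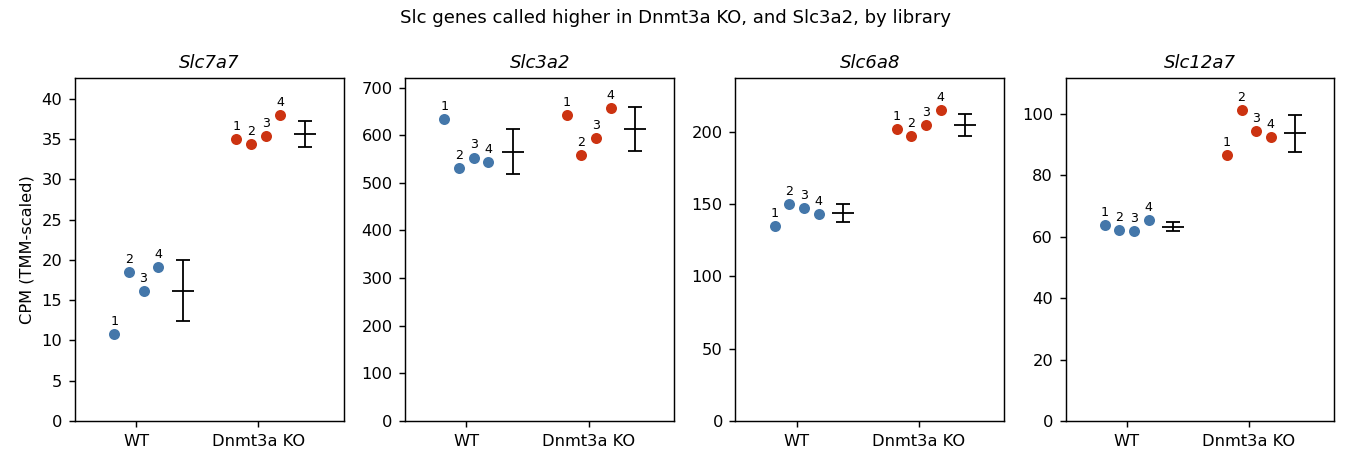
TMM-scaled CPM (linear axes from 0) of Slc7a7, Slc3a2, Slc6a8 and Slc12a7 in the 4 WT (blue) and 4 Dnmt3a KO (red) libraries, numbered by replicate, with mean and SD in black. The 3 called genes have no overlap between genotypes, while Slc3a2, the heavy chain of Slc7a7, overlaps, at 531 to 635 CPM in WT and 558 to 658 CPM in KO.

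Windows at transcript starts of Slc7a7 and Slc12a7 are shown because both genes were called. A different motif was picked to be marked in each gene. ATF4, which has amino acid carriers among its known targets, binds TGATGNAA. TFEB, known for lysosomal genes, binds the E-box CACGTG, but Slc12a7 is described above as a carrier out of the cell. Control of either gene by these factors was not tested. The sequences are RefSeq windows on GRCm38.p6, from 250 bases before to 50 bases after a transcript start, the first listed of 5 windows for Slc7a7 (chr14:54417895-54418194, minus strand) and of 2 for Slc12a7 (chr13:73763410-73763709, plus strand). All windows of both genes lie inside the gene spans given below. They belong to internal transcript starts and do not show the outermost start of either gene. Capitals mark TGATGNAA in Slc7a7 and CACGTG in Slc12a7, both searched on both strands in both genes. No Slc7a7 window held CACGTG, and no Slc12a7 window held TGATGNAA.
Slc7a7: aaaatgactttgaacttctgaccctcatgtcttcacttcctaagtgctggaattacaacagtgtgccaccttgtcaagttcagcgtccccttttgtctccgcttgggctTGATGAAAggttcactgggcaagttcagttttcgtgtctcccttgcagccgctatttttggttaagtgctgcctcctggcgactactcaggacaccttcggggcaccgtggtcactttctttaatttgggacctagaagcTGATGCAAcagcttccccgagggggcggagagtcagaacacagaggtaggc
Slc12a7: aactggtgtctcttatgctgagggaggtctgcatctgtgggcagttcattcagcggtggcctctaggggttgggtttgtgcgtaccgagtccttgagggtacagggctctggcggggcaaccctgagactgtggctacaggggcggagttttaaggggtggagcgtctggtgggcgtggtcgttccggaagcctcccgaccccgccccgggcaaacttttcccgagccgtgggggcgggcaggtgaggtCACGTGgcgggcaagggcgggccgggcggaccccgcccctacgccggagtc

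The Slc7a7 window held 2 matches to TGATGNAA, a motif found in 2.33% of the 9630 windows of tested genes (first listed window of each). The Slc12a7 window held 1 CACGTG, found in 10.4% of the windows, and 3 matches to a loose NF-kappa-B-like motif, found in 67.5%. The second Slc7a7 window held 1 TGATGNAA and the other 3 held none, while NF-kappa-B-like matches numbered 0, 4, 4, 0 and 2 in its windows 1 to 5. The other 2 motifs were searched on both strands: TGACNNNGC (antioxidant response element), found in 15.2% of windows, and an interferon-stimulated response element, found in 3.32%; neither was in a window of these genes. A match describes these letters and is not evidence of binding. Windows were at hand for 121 of the 156 carriers (77.6%), and the carriers' promoters were not compared with those of other genes. Slc6a8 had no window in the table.

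On chromosome 14 (GRCm38) Slc7a7 spans 54369442 to 54420068 in RefSeq (minus strand). In the GENCODE annotation its exons overlap those of Oxa1l on the other strand by 232 bases, and the library kit does not keep strand. Oxa1l, a mitochondrial insertase, was at 53.3 in WT and 48.95 CPM in KO and was not called (edgeR adjusted p = 0.769). The second tested gene past the start of Slc7a7 was Mmp14, a membrane-bound metalloproteinase, called higher (231 CPM in WT, 402 CPM in KO, log2 fold change 0.80, SE 0.14, edgeR adjusted p = 0.0145). Mrpl52, which lies between them, was not called. None of the 5 nearest tested genes on either side of Slc12a7 (chromosome 13, 73733052 to 73816754) or of Slc6a8 (chromosome X, 73673133 to 73682502) was called.

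Some genes on marker lists of other cells moved with the same contrast. The counts below stand beside 1.22% of all tested genes called higher and 0.392% called lower. Summed neutrophil markers were at 328 to 482 in WT and 801 to 986 CPM in KO, with 6 of 15 tested called higher. Osteoclast markers were at 219.6 to 274 in WT and 323 to 454 CPM in KO, with 4 of 8 called higher. Of those 8, Ocstamp and Nfatc1 were below 0 (log2 fold change -0.26 and -0.07) and were not called. Monocyte markers had 2 of 8 called. The erythroid and megakaryocyte list had 2 of 5 (Itga2b and Gp1bb), with Hba-a1 and Hba-a2 at 0 and Pf4 not called (log2 fold change -0.08). The B cell list had 1 of 4 (Cd22), with Cd79b not called (log2 fold change -0.30). The T and NK cell list had 1 of 2 (Cd4). The T cell markers Cd3e, Cd3g, Cd3d and Cd8a had only 19, 9, 7 and 9 counts summed over all 8 libraries. The macrophage, dendritic cell, mast cell (Mcpt4 at 0) and stromal lists had 0 called. Their part in the higher Slc7a7, Slc6a8 and Slc12a7 was not tested.

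The family as a whole lay close to no change. The median log2 fold change was -0.04 over the 156 carriers and -0.02 over all tested genes, with 63 carriers above 0 and 93 below. For 149 carriers (95.5%) the log2 fold change was within 0.5 of 0, as for 88.8% of all tested genes and 94.9% of the 9304 other genes with 1000 or more counts. The 95% interval of 153 carriers lay within 1 log2 unit of 0, and that of 102 within 0.5. The 7 carriers at or beyond 0.5, named after their values were seen, were the 3 called genes and Slc9a9, Slc9a5, Slc12a9 and Slc6a12. In 15 carriers the WT and KO libraries did not overlap, 7 higher and 8 lower in KO, or 9.62%. Over all tested genes that share was 9.41% (5.13% higher and 4.28% lower), so the carriers' share was near the background.

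**Figure D2:**
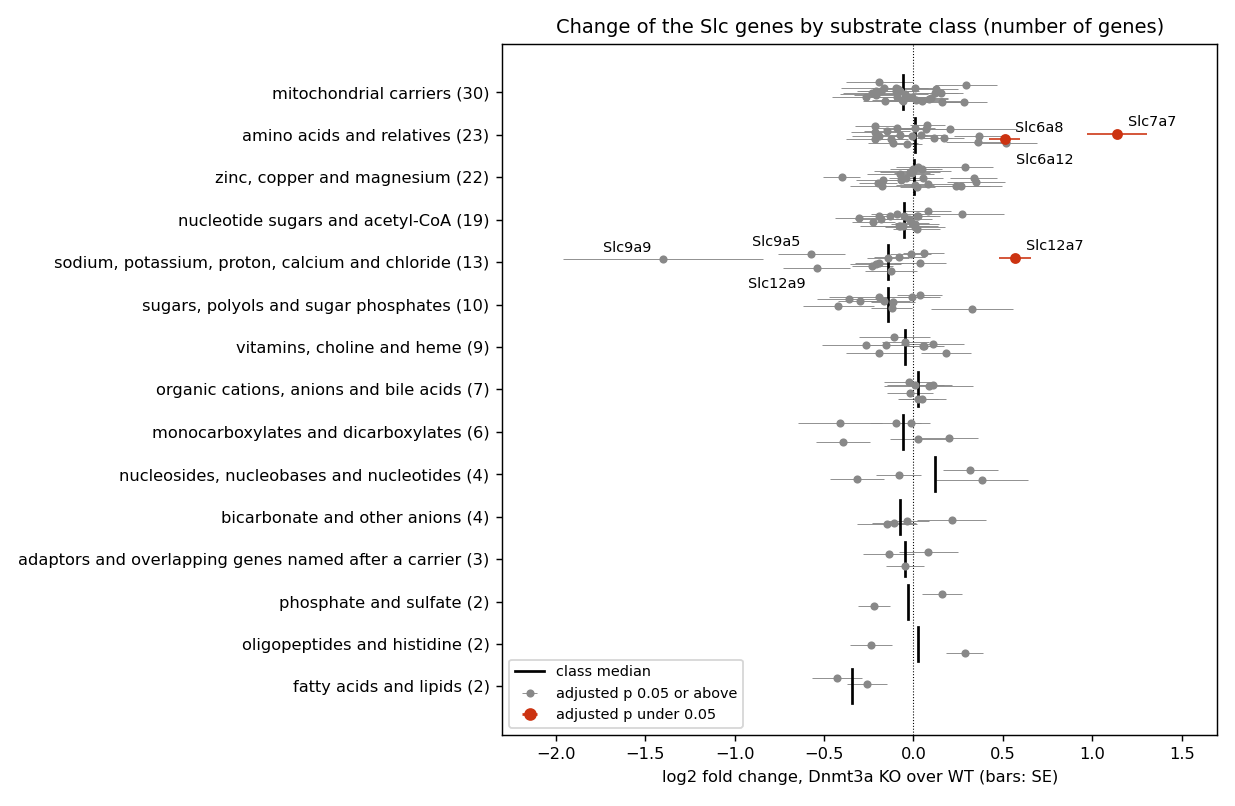
Log2 fold change of Dnmt3a KO over WT for each of the 156 Slc genes (points, bars SE), in 15 substrate classes with the number of genes in brackets and the class median as a black line. The 3 red points are the called genes, and 149 of the 156 points lie within 0.5 of 0.

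The class of amino acids and relatives, which also holds carriers of creatine, taurine and betaine, had 2 of 23 genes called higher and 0 lower. The 2 were Slc7a7 and the creatine transporter Slc6a8. Over all tested genes 1.22% were called higher. The median log2 fold change of the class was 0.01, with 12 genes above 0. Slc3a2, the CD98 heavy chain that brings the light chains to the membrane, had the highest level per length of all carriers, at 209.6 CPM per kb. It was at 635, 531, 553 and 544 CPM in WT and at 643, 558, 594 and 658 CPM in KO, and these ranges overlap. Of its light chains, Slc7a8 (LAT2, neutral amino acids) was at 153 CPM per kb, Slc7a5 (LAT1, large neutral amino acids) at 29.5, Slc7a11 (xCT, which brings in cystine for glutathione) at 28.6, Slc7a6 (y+LAT2) at 11.7 and Slc7a7 at 11.4. Slc7a6, the close relative that performs the same exchange as Slc7a7, was at 47.1 ± 7.79 in WT and 40.6 ± 8.32 CPM in KO (n = 4 each) and was not called. The other arginine carriers were not called either: Slc7a1 (CAT1) was at 125 ± 13.5 in WT and 126 ± 11.3 CPM in KO.

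Slc7a11 was at 141, 251, 284 and 248 CPM in WT and at 303, 275, 311 and 298 CPM in KO. WT replicate 1 was the lowest by far, and WT replicate 3 exceeded KO replicate 2. The edgeR adjusted p was 0.441. Slc7a2 (CAT2), which brings in arginine for arginase and nitric oxide synthase in stimulated macrophages, ranged from 19.4 to 64.4 CPM in WT and from 24.2 to 69.3 CPM in KO. Replicate 1 was the lowest library in both genotypes, and the range within each was wider than the difference of means (45.4 and 52.4 CPM).

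None of the other carriers of the class that are named here was called by edgeR. Slc6a6, the taurine transporter, was at 766 ± 64.2 in WT and 702 ± 36.2 CPM in KO, or 119 CPM per kb over all libraries. Slc43a2 (LAT4) stood at 97.6 CPM per kb and Slc16a10 (TAT1, aromatic amino acids) at 71.0. The glutamine carrier Slc1a5 was at 136 ± 15.8 in WT and 126 ± 22.9 CPM in KO, and Slc38a1 and Slc38a2, which also take up glutamine, were not called. Slc38a9, the lysosomal arginine sensor, was low, at 2.95 CPM per kb. Slc38a6 was at 17.2, 23.8, 24.2 and 21.8 CPM in WT and 25.9, 31.98, 26.01 and 28.1 CPM in KO. Those groups did not overlap, but the edgeR adjusted p was 0.284. Slc6a12, the betaine transporter, was at 4.83 to 7.63 in WT and 8.18 to 10.3 CPM in KO, again without overlap and without a call (edgeR adjusted p = 0.214).

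Genes that work with these carriers were tested singly and counted by list, with no test of a list as a whole. Of 17 tested targets of ATF4 in the amino acid response, none of them Slc genes, 0 were called, and the same held for 20 genes of amino acid sensing at the lysosome and for 9 partner and chaperone subunits of carriers. With an unadjusted p under 0.05, 4 of the ATF4 targets were on the higher side, 2 of the lysosome genes on the lower side and 2 of the partners on the higher side. Over all tested genes 6.82% were on the higher side and 5.84% on the lower side. Emb (embigin), a chaperone of lactate carriers, was at 264 ± 33.7 in WT and 340.2 ± 16.4 CPM in KO (edgeR adjusted p = 0.148). Bsg (basigin), the other such chaperone, was at 358 ± 80.4 in WT and 329 ± 10.98 CPM in KO.

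Among the 13 carriers of sodium, potassium, protons, calcium and chloride, Slc12a7 was the single call, and 10 had a log2 fold change below 0 (median -0.14). The related potassium-chloride cotransporter Slc12a4 (KCC1) was at 35.5 CPM per kb, and Slc12a7 at 11.2. Slc12a4 was at 145 ± 29.3 in WT and 125 ± 14.6 CPM in KO and was not called. Slc12a2 (NKCC1), which brings these ions in with sodium, was at 19.9 ± 1.21 in WT and 20.7 ± 1.59 CPM in KO. Slc12a9, an atypical relative, was at 59.3, 40.7, 34.02 and 34.4 CPM in WT and 34.1, 30.9, 24.1 and 26.4 CPM in KO, where KO replicate 1 reached the lowest WT library (log2 fold change -0.54, SE 0.19; edgeR adjusted p = 0.232).

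Slc9a9 encodes NHE9, a sodium-proton exchanger of endosomes, and had the largest fitted change among the carriers and the widest spread among KO libraries. It was at 13.5, 25.6, 31.8 and 31.3 CPM in WT and at 20.2, 13.4, 3.00 and 2.22 CPM in KO. KO replicates 3 and 4 were far below the rest, while KO replicates 1 and 2 lay close to WT replicate 1, the lowest WT library. The log2 fold change was -1.40 with an SE of 0.56, and the 95% interval ran from -2.63 to -0.18 (edgeR adjusted p = 0.313). It reached a call in one setting, with no filter on low counts (edgeR adjusted p = 0.0490), and its adjusted p reached 0.533 without KO replicate 3. Slc9a5 (NHE5) was at 9.44 to 15.8 in WT and 6.62 to 9.93 CPM in KO (log2 fold change -0.57, SE 0.19; edgeR adjusted p = 0.198). All 6 Slc9 exchangers had a log2 fold change below 0, and 0 were called. The highest level per length of the class was that of Slc24a6 (NCLX, the sodium-calcium exchanger of mitochondria), at 41.5 CPM per kb.

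**Figure D3:**
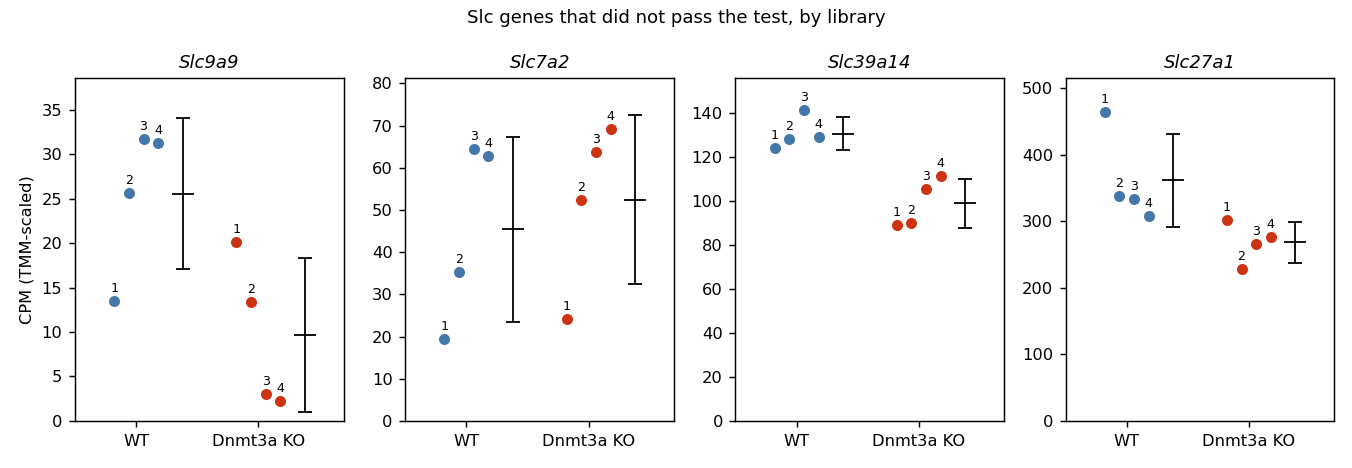
TMM-scaled CPM (linear axes from 0) of Slc9a9, Slc7a2, Slc39a14 and Slc27a1 in the 4 WT (blue) and 4 Dnmt3a KO (red) libraries, numbered by replicate, with mean and SD in black. KO replicates 3 and 4 of Slc9a9 lie at 3.00 and 2.22 CPM, and replicate 1 of Slc7a2 is the lowest library in both genotypes.

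Of the 22 carriers of zinc, copper and magnesium 0 were called, with 11 above 0 and 11 below. Slc39a14 (ZIP14), which brings zinc, manganese and non-transferrin iron into cells, came nearest to a call. It was at 124, 128, 142 and 129 CPM in WT and at 89.3, 89.9, 105 and 111 CPM in KO. All KO libraries were below all WT libraries. The log2 fold change was -0.40 (SE 0.10; edgeR adjusted p = 0.0913), and it was called lower by DESeq2 (adjusted p = 0.0195) and by edgeR without WT replicate 1 (adjusted p = 0.0189), with a range of 0.0189 to 0.254 over the 16 settings. Slc30a1 (ZnT1), which exports zinc from the cytosol, was at 20.7, 34.6, 35.6 and 34.7 CPM in WT and at 41.3, 37.1, 39.8 and 41.96 CPM in KO. Here too the groups did not overlap, and WT replicate 1 was far below the other WT libraries (edgeR adjusted p = 0.409). Slc31a2, a copper carrier of endosomes and lysosomes, was at 52.9 to 68.0 in WT and 57.1 to 82.9 CPM in KO (edgeR adjusted p = 0.306). The main copper importer Slc31a1 (CTR1) was at 115 ± 24.9 in WT and 139 ± 19.8 CPM in KO. Slc39a7, which releases zinc from the endoplasmic reticulum, had the highest level per length of the class (83.2 CPM per kb), and its exons overlap another annotated transcript on the same strand.

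The mitochondrial carriers were the largest class, with 30 genes and 0 called, and all 30 lay within 0.5 of 0 on the log2 scale (median -0.06). Slc25a5 and Slc25a4, the ADP/ATP exchangers ANT2 and ANT1, were at 206 and 130.01 CPM per kb. Slc25a5 was at 247 ± 24.03 in WT and 264 ± 5.96 CPM in KO. Slc25a3, the phosphate carrier that supplies ATP synthase, was at 76.3 CPM per kb, and Slc25a1, which exports citrate for lipid synthesis, at 40.2. Slc25a20, which brings acylcarnitines in for fatty acid oxidation, was at 54.3 ± 4.68 in WT and 54.6 ± 5.04 CPM in KO. Slc25a37 (mitoferrin 1), the iron importer, was at 41.1, 44.5, 55.7 and 50.1 CPM in WT and 55.8, 50.5, 65.6 and 61.5 CPM in KO, with overlap (edgeR adjusted p = 0.376). Below the limit of 1000 counts, Slc25a23, an ATP-magnesium and phosphate carrier with 660 counts, was at 6.16 ± 0.85 in WT and 3.02 ± 0.56 CPM in KO. It was the single called gene among the 45 Slc genes that were tested without reaching the limit (log2 fold change -1.01, SE 0.20, edgeR adjusted p = 0.0318).

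The fatty acid class held Slc27a1 (FATP1) and Slc27a4 (FATP4), which drive fatty acid uptake by coupling it to acyl-CoA formation. Slc27a1 was at 465, 339, 334 and 308 CPM in WT and at 302, 228, 266 and 277 CPM in KO, and stood at 98.1 CPM per kb. Slc27a4 was at 74.6, 56.4, 57.7 and 57.4 CPM in WT and at 52.7, 48.5, 51.4 and 53.1 CPM in KO. In both genes all KO libraries were below all WT libraries and WT replicate 1 was the highest. Neither was called (log2 fold change -0.43, SE 0.14, edgeR adjusted p = 0.196 for Slc27a1, and -0.26, SE 0.11, edgeR adjusted p = 0.367 for Slc27a4).

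Slc15a3 and Slc15a4 carry histidine and small peptides out of endolysosomes, and Slc15a4 is needed for signalling by nucleic acid sensing Toll-like receptors. Slc15a3 was at 285, 289, 289.7 and 267 CPM in WT and 386, 339.8, 290.0 and 364 CPM in KO. The groups were parted by less than 1 CPM, at WT replicate 3 and KO replicate 3, and the edgeR adjusted p was 0.257. Its exons overlap those of Tmem132a on the other strand by 1541 bases, beside a longest Slc15a3 transcript of 4868 bases. Without strand, reads from the shared bases cannot be told apart. Slc15a4 was at 87.5 to 112 in WT and 72.1 to 89.5 CPM in KO, and was not called.

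Of the 10 carriers of sugars and sugar phosphates 0 were called, with 8 below 0 and a median of -0.14. Slc37a2, an exchanger of sugar phosphates that is abundant in macrophages, led the class with 66.1 CPM per kb. Slc2a6 (GLUT6, a glucose carrier family member of lysosomes) was at 34.8 CPM per kb and at 98.2 ± 13.7 in WT and 90.6 ± 10.2 CPM in KO. Slc37a4, which moves glucose 6-phosphate into the endoplasmic reticulum, was at 18.2 to 22.9 in WT and 15.3 to 19.2 CPM in KO (edgeR adjusted p = 0.364). Among 6 monocarboxylate and dicarboxylate carriers, Slc16a3 (MCT4), which exports the lactate of glycolysis, led with 73.0 CPM per kb and was at 327 ± 62.3 in WT and 306 ± 39.7 CPM in KO. Slc16a1 (MCT1) was at 48.3 ± 6.64 in WT and 49.2 ± 10.2 CPM in KO. Slc16a13, a lesser known relative, was at 15.4 to 22.8 in WT and 12.2 to 15.1 CPM in KO, without overlap and without a call (edgeR adjusted p = 0.290).

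Heme, vitamin and choline carriers (9 genes, 0 called) were led by Slc48a1 (HRG1), which brings heme out of the phagolysosome after red cells are digested, at 133 CPM per kb. It was at 331 ± 44.3 in WT and 344 ± 23.9 CPM in KO. Slc23a2, a vitamin C carrier, was at 31.2 CPM per kb, and Slc44a1, a choline carrier, at 24.9. Slc44a2, its relative, had the smallest p of the class and was at 90.3 to 116 in WT and 82.8 to 107 CPM in KO (edgeR adjusted p = 0.629). Of the 4 nucleoside and nucleobase carriers 0 were called. Slc29a3 (ENT3), which lets nucleosides out of lysosomes, was at 47.1, 60.7, 83.1 and 73.5 CPM in WT and 79.1, 86.9, 78.1 and 85.6 CPM in KO. The KO libraries lay together, in the upper part of a wide WT range or above it. Slc29a1 (ENT1), of the plasma membrane, was at 40.8 to 68.2 in WT and 40.1 to 45.9 CPM in KO (edgeR adjusted p = 0.419).

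The 19 carriers placed by family number in the class of nucleotide sugars and acetyl-CoA had 0 calls and a median of -0.05. The substrate of each was not looked up singly. Slc35b1 led them with 56.5 CPM per kb. Slc35e2 was at 18.4 to 23 in WT and 14.1 to 18.1 CPM in KO and had the smallest p of the class (edgeR adjusted p = 0.377). The phosphate importer Slc20a1 was at 152, 166, 159.6 and 170.4 CPM in WT and 133, 148, 145 and 130.4 CPM in KO. These groups did not overlap, and the log2 fold change was -0.22 (SE 0.09; edgeR adjusted p = 0.320). Of 4 bicarbonate and anion carriers, Slc4a7, which takes part in phagosome acidification, led with 45.7 CPM per kb and was at 391 ± 86.8 in WT and 353 ± 50.8 CPM in KO. Slc26a2, a sulfate carrier, had the smallest p of that class and was at 30.6 to 67.5 in WT and 58.4 to 60.8 CPM in KO (edgeR adjusted p = 0.696). The 7 organic ion carriers, led by the ergothioneine carrier Slc22a4 at 18.4 CPM per kb, had 0 calls and all lay within 0.5 of 0. Slc9a3r1, Slc4a1ap and Slc7a6os, which are an adaptor, a binding protein and an overlapping gene rather than carriers, had 0 calls.

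**Figure D4:**
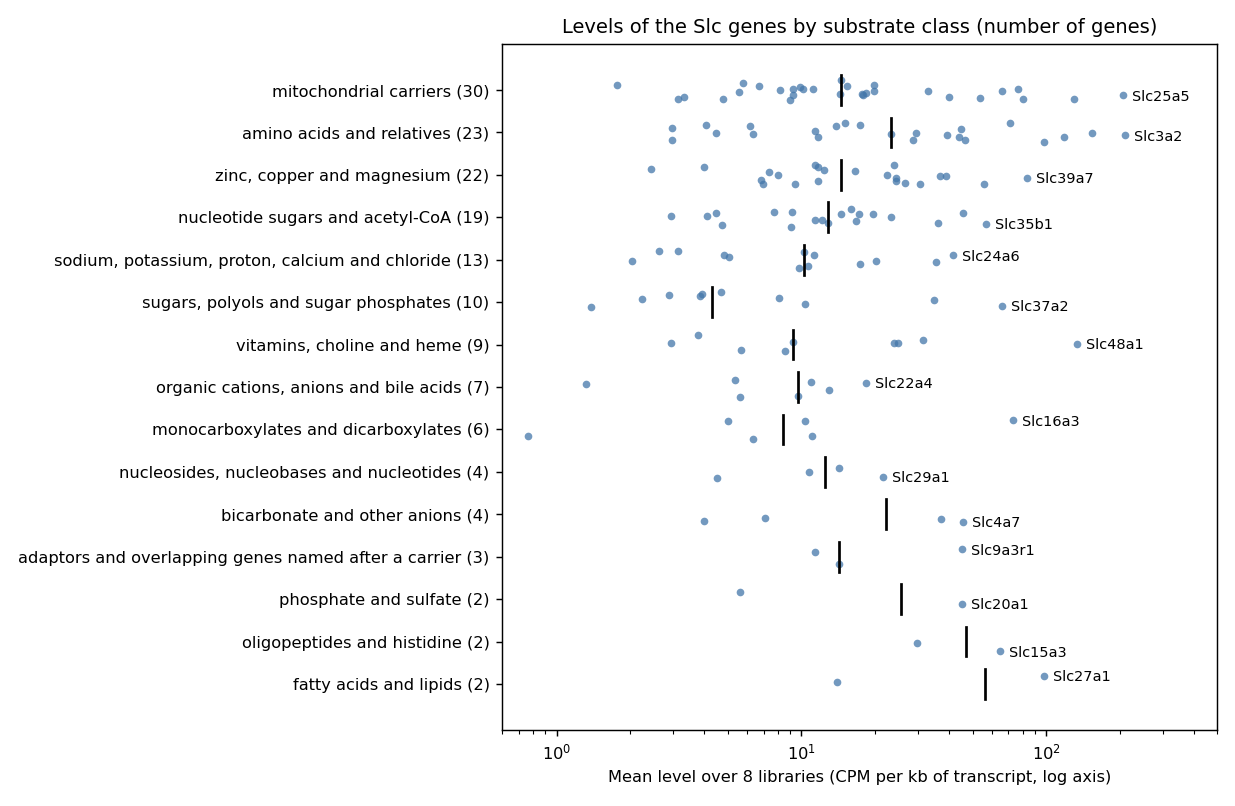
Mean level over the 8 libraries, as CPM per kb of the longest annotated transcript on a log axis, for the 156 Slc genes in 15 substrate classes, with the class median as a black line and the highest gene of each class named. Levels run from 0.765 CPM per kb to 209.6 CPM per kb for Slc3a2, with Slc25a5 next at 206 CPM per kb.

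Of the carriers, 17 (10.9%) were at or above percentile 90 of the tested genes in level per length. Other transporter families gave no call: 0 of 32 ABC genes, 0 of 4 Slco genes and 0 of 14 Mfsd genes tested. With an unadjusted p under 0.05, 2 ABC genes were on the higher and 4 on the lower side, 1 Slco gene was on the higher side, and the Mfsd genes had 0 on either side. Over all tested genes 1.61% were called, and 6.82% and 5.84% had such an unadjusted p on the higher and the lower side.

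Carriers varied more among WT than among KO replicates with WT replicate 1, and less without it. The median SD of log2 CPM among carriers was 0.21 in WT and 0.14 in KO, and over all tested genes 0.26 in WT and 0.17 in KO. Without WT replicate 1, a setting added after seeing the data, the WT value was 0.10 for carriers and 0.12 for all tested genes, below KO. WT replicate 1 was the highest library for 59 carriers and the lowest for 53, and KO replicate 2 was the highest or lowest for 35.3%. By this count the other 6 libraries each stood at an end for 9.62% to 23.7% of the carriers.

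**Figure D5:**
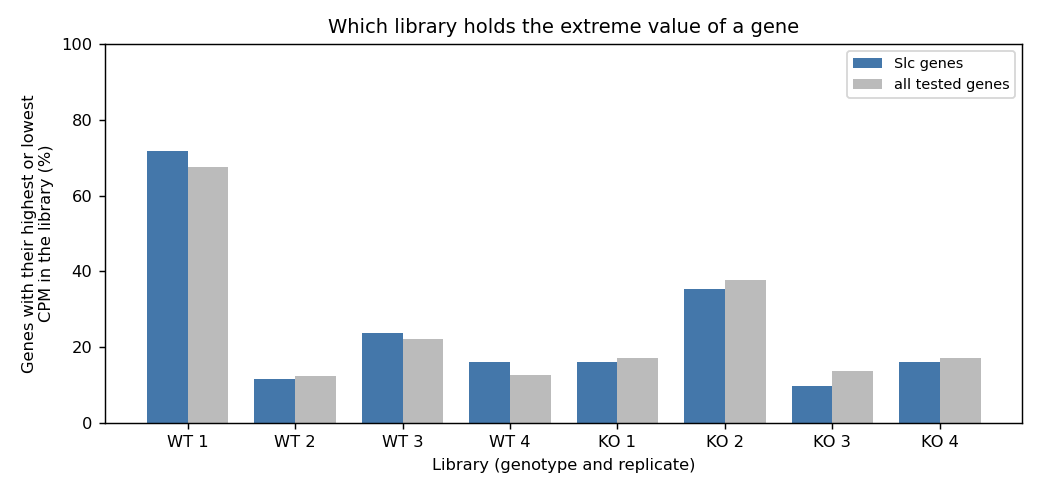
Percent of genes whose highest or lowest CPM of the 8 libraries falls in each library, for the 156 Slc genes (blue) and all 12507 tested genes (grey). WT replicate 1 holds an end value for 71.8% of the Slc genes and KO replicate 2 for 35.3%.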

How the data were processed

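RNA-seq counts were taken from the deposited gene table as whole-number counts. The submitters' processing notes name Trimmomatic 0.39 (a read trimmer), STAR 2.7.0a (an aligner), featureCounts (a read counter) and mm10, with settings not given in the sources used here. Only these counts were used, and the authors' deposited comparison table was not used. Genes were kept by filterByExpr (minimum count 10) and fitted with edgeR 4.0.16 in R 4.3.3 (TMM scaling, quasi-likelihood test, no covariate, both genotypes). SEs are the absolute log2 fold change over the square root of F. DESeq2 1.42.0 and limma-voom (limma 3.58.1), other scalings and filters, a replicate block and leaving out each library were alternatives. The table holds 25 symbols turned into dates, none of them a carrier. Transcript lengths, strands and exon overlaps are from GENCODE vM21 (GRCm38), and gene coordinates are from RefSeq. Exons of 46 carriers overlap another annotated gene.

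The carriers, classes and lists were chosen with earlier results of these data known. Named were every called carrier, the highest level per length and smallest p of each class, well-known carriers (in full or in counts), and genes next to the limit of 1000 counts; a few carriers are counted in their classes but not reported singly here. Libraries were numbered 1 to 4 for WT and 9 to 12 for KO in the labels, so library order and genotype cannot be told apart.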

Additional observations from a re-analysis of the deposited data

Results flagged for a closer look

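Of 134 groups of 4 libraries (67 named carriers in each genotype), 9 had a library far from the other 3, or 6.72%; chance flags about 1 in 20. In 8 of the 9 the library was WT replicate 1.

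WT replicate 1 was the highest of its group for Slc27a4, at 74.6 CPM with the others at 56.4 to 57.7 CPM. It was also the highest for Slc15a4, at 112 CPM with the others at 87.5 to 88.3 CPM. For Slc25a11, the mitochondrial oxoglutarate carrier, it was at 185 CPM with the others at 129 to 134 CPM. For Slc39a1, a zinc importer, it was at 148 CPM with the others at 123 to 126 CPM.

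WT replicate 1 was the lowest of its group for Slc30a1, at 20.7 CPM with the others at 34.6 to 35.6 CPM. It was the lowest for Slc38a2, a carrier of small neutral amino acids, at 182 CPM with the others at 237 to 248 CPM. For Slc28a2, a concentrative nucleoside carrier, it was at 8.71 CPM with the others at 17.1 to 18.6 CPM. For Slc33a1, the acetyl-CoA carrier, it was at 40.2 CPM with the others at 55.6 to 57.7 CPM.

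KO replicate 2 was the lowest of its group for Slc24a6, at 100 CPM with the others at 118 to 121 CPM. None of these values belongs to Slc7a7, Slc6a8 or Slc12a7.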

How the results depend on the processing

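The number of carriers called higher stayed at 3 except for 1 (Slc7a7) when the change also had to reach 1 on the log2 scale, and 2 to 3 when one library was left out, 2 without KO replicate 4. The number called lower was 0, and 1 with no filter on low counts (Slc9a9), with DESeq2 and without WT replicate 1 (Slc39a14), and with no limit of 1000 counts (Slc25a23); leaving out one library gave 0 to 1. Over all genes 201 were called, 399 with no filter, 514 with DESeq2, 118 with that fold limit, and 103 to 484 when one library was left out, the highest without WT replicate 1. The median log2 fold change of the carriers was -0.0361, -0.0488 with no scaling factors, and -0.0452 to -0.0157 when one library was left out. Slc7a6os, not called, changed sign without WT replicate 1 (0.0024; -0.2081 to 0.0024 with one library left out). The causes were not tested.

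Whether replicate numbers pair the libraries could not be settled: deviations of same-numbered libraries correlated at 0.25, 0.28, 0.07 and -0.02. Those of differently numbered libraries of the 2 genotypes correlated at -0.37 to 0.27. With a replicate block 3 carriers were called higher, 0 lower and 260 genes in all. Depth limits single values most where counts are few: the lowest count of a carrier in a library was 38, for Slc9a9 in KO replicate 3.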
